A study of Mus musculus with 12 samples.

Results

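Solute carriers are membrane proteins that move small molecules such as sugars, amino acids, nucleosides, metal ions and protons across the membranes of cells and organelles. The solute carrier genes described here are the protein-coding rows of the deposited expression table with a symbol of the form Slc followed by a number that reached 1 FPKM in 3 or more of the 12 libraries. FPKM is a read count scaled by gene length and library total. This rule gave 179 genes of 376 protein-coding Slc rows, in a table of 55322 rows. It used the measured levels, so that a listed gene is expressed is a condition of the choice and not a finding.

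The libraries came from conventional dendritic cells (cDCs) sorted from mouse spleen, in 4 groups of 3. The labels name these L-cDC1 and M-cDC1, which belong to the cDC1 subset, and L-cDC2 and M-cDC2, which belong to cDC2. The labels give all 12 libraries the genotype Il7r-cre; Rosa26-lsl-tdTomato, a Cre recombinase made from the Il7r gene with a red reporter that Cre switches on, and the protocol and design texts describe the animals as naive wild-type mice of the C57BL/6J strain, 7 to 8 weeks old and kept free of specific pathogens. The series title speaks of cDCs of lymphoid origin, and the sample labels do not spell out L and M, say how reporter expression was used in sorting, or tie replicates to animals. P-values here therefore reflect only how much these samples vary, and that variation may be technical.

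Carriers are grouped into families by sequence, and the family number in the symbol usually goes with the kind of substrate. The best known in phagocytes are the endolysosomal carriers that move peptides, histidine and metals out of the compartment where cargo is digested and where nucleic acid sensors signal. Others are the plasma membrane carriers for glucose, lactate and glutamine, which feed activated cells, and the mitochondrial carriers of the Slc25 family, which exchange nucleotides, metabolites and iron with the matrix. cDC1 are the cross-presenting subset that depends on Irf8 and Batf3, and cDC2 are the subset marked by Sirpa that depends on Irf4.

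The libraries held 15879864 to 24498235 reads, and the 179 genes took 0.985% to 1.2% of them. For a 1 kb gene, 3 reads corresponded to 0.122 to 0.189 FPKM. Within a group, the log2(FPKM + 1) values of the 179 genes correlated at 0.958 to 0.983 between libraries. The subset labels were met by the markers, since all 9 cDC1 markers were higher and all 9 cDC2 markers lower in cDC1 than in cDC2, within L and within M (limma, adjusted p under 0.05). Markers of other cells were present and differed between groups. Summed FPKM of 10 B cell markers was 587 to 916 in L-cDC1, 307 to 357 in M-cDC1, 921 to 3260 in L-cDC2 and 406 to 447 in M-cDC2. The sum of 10 T and NK cell markers was 12.1 to 19.5, 1.28 to 1.53, 41.5 to 105 and 5.96 to 8.16 in the same groups. The erythroid and platelet sum was 30.1 to 50.5, 22 to 24, 0.134 to 1.85 and 0.605 to 6.17. In bulk libraries, more cells of a type and more RNA per cell cannot be told apart.

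Of the 179 genes, 125 reached 1 FPKM in every library, and 44 of the 51 Slc families of the table had at least 1 of them. The median of the mean levels was 5.13 FPKM, against 5.86 for all 12434 genes that met the same minimum. Mean levels of 92 genes were at least 5 FPKM and those of 38 were under 2. The 3 highest were Slc25a5, which swaps ADP for ATP across the inner mitochondrial membrane, Slc46a3, a lysosomal carrier, and Slc25a11, which exchanges oxoglutarate for malate. Slc25a5 lay between 581 and 635 FPKM in L-cDC1 libraries, 591 and 764 in M-cDC1, 476 and 513 in L-cDC2 and 521 and 596 in M-cDC2. Its values can include reads of near-identical ADP/ATP carrier copies. The genes just inside the minimum were Slc39a14 and Slc16a7, each with a third-highest library of 1.03 FPKM, and those just outside were Slc10a1 at 0.962 and Slc25a47 at 0.942 FPKM. Of the 197 Slc rows left out, 56 were listed at 0 in all libraries and 112 stayed under 0.1 FPKM throughout. Among them were the iron exporter Slc40a1, with a highest library of 0.865 FPKM, the cystine carrier Slc7a11 (0.878), the zinc carriers Slc39a8 (0.649) and Slc30a1 (0.468), and the red cell anion exchanger Slc4a1 (0.0182).

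The comparison of cDC1 with cDC2 asked which carriers separate the subsets, and it was made within L and within M. By the mean of the differences within L and within M, the largest toward cDC1 were those of Slc11a1, a metal carrier, Slc8b1, a mitochondrial calcium exchanger, and Slc22a18, a putative cation carrier. The largest toward cDC2 were those of Slc2a3, a glucose carrier, Slc44a2, a choline carrier, and Slc6a12, a betaine and GABA carrier. Within L, 91 of 179 genes passed the test (limma on log2(FPKM + 1), Benjamini-Hochberg adjusted p under 0.05), 39 higher and 52 lower in L-cDC1 than in L-cDC2, and within M 90 passed, 36 higher and 54 lower. Those are 50.8% and 50.3% of the carriers. Over all 12434 genes tested, 39.5% passed within L (12.9% higher, 26.6% lower) and 38.1% within M (12.7% higher, 25.4% lower). In what follows, a pair of values for cDC1 or cDC2 gives the L and then the M group mean in FPKM, and a pair of differences gives cDC1 minus cDC2 on the log2(FPKM + 1) scale within L and then within M, with SD and n = 3 for each mean. Genes said to be higher or lower passed the limma test in both unless stated.

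The carriers called in L and in M were largely the same. Called the same way in both were 33 higher and 42 lower genes (18.4% and 23.5% of the carriers, against 9.84% and 18.6% of all genes tested), and 0 were called in opposite directions. They make up 82.4% of the calls within L and 83.3% of those within M. The shares of all genes, 9.84% and 18.6%, are also the ones to set beside the counts by transport group and family below. Across the 179 genes, which are not independent replicates, the differences within L and within M correlated at a Pearson r of 0.948, and the contrasts share no library. The difference exceeded 1 on the log2 scale in both for 44 genes. In 72 of the 75 genes called in both, the 3 cDC1 and 3 cDC2 libraries did not overlap within L or within M. These 72 are 40.2% of the carriers, and 27.6% of all genes tested met the same condition. A gene that met the minimum in 1 subset alone leaned toward that subset by the rule, though it was not bound to be called. This concerned 8 genes that reached 1 FPKM only in cDC1 libraries and 17 only in cDC2 libraries. Among them were Slc16a1 and Slc7a8 for cDC1, and Slc15a3, Slc12a2, Slc8a2, Slc16a14, Slc44a5 and Slc49a4 for cDC2. Of the other 154 genes, 58 were called in both, and the share of all genes under that condition was not computed.

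The balance of directions depended on scaling. The median difference of all genes was -0.193 within L and -0.177 within M on the deposited values, -0.035 and -0.026 after median-of-ratios scaling and 0.025 and 0.044 after quantile normalization. The share of called carriers that were higher in cDC1 was 42.9% within L and 40% within M as deposited, 56.3% and 53.5% after median-of-ratios scaling, and 59.8% and 59.3% after quantile normalization. All 20 genes in the panels of single-gene levels kept their direction and their call under each of these scalings.

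**Figure D1:**
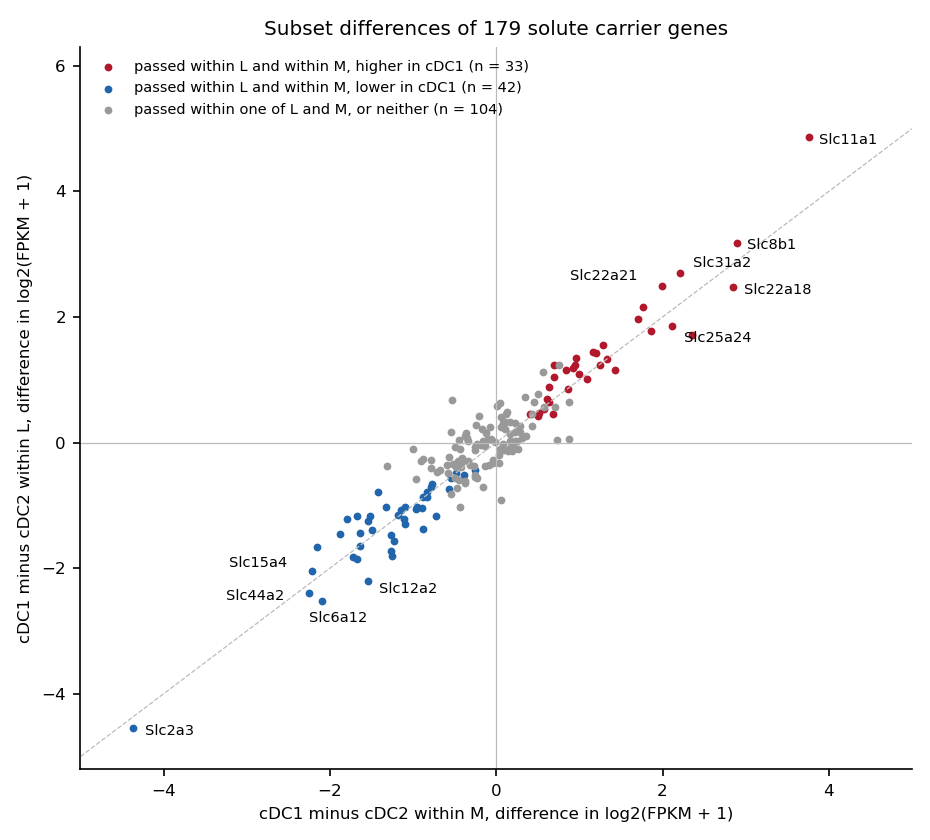
Difference between cDC1 and cDC2 in log2(FPKM + 1) within L (vertical axis) against the same difference within M (horizontal axis), 1 point for each of 179 solute carrier genes. Red points (33) passed the test higher in cDC1 within L and within M, blue points (42) lower, and grey points did not pass in both. Points lie along the dashed line of equality, with Slc11a1 and Slc2a3 at the ends.

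**Figure D2:**
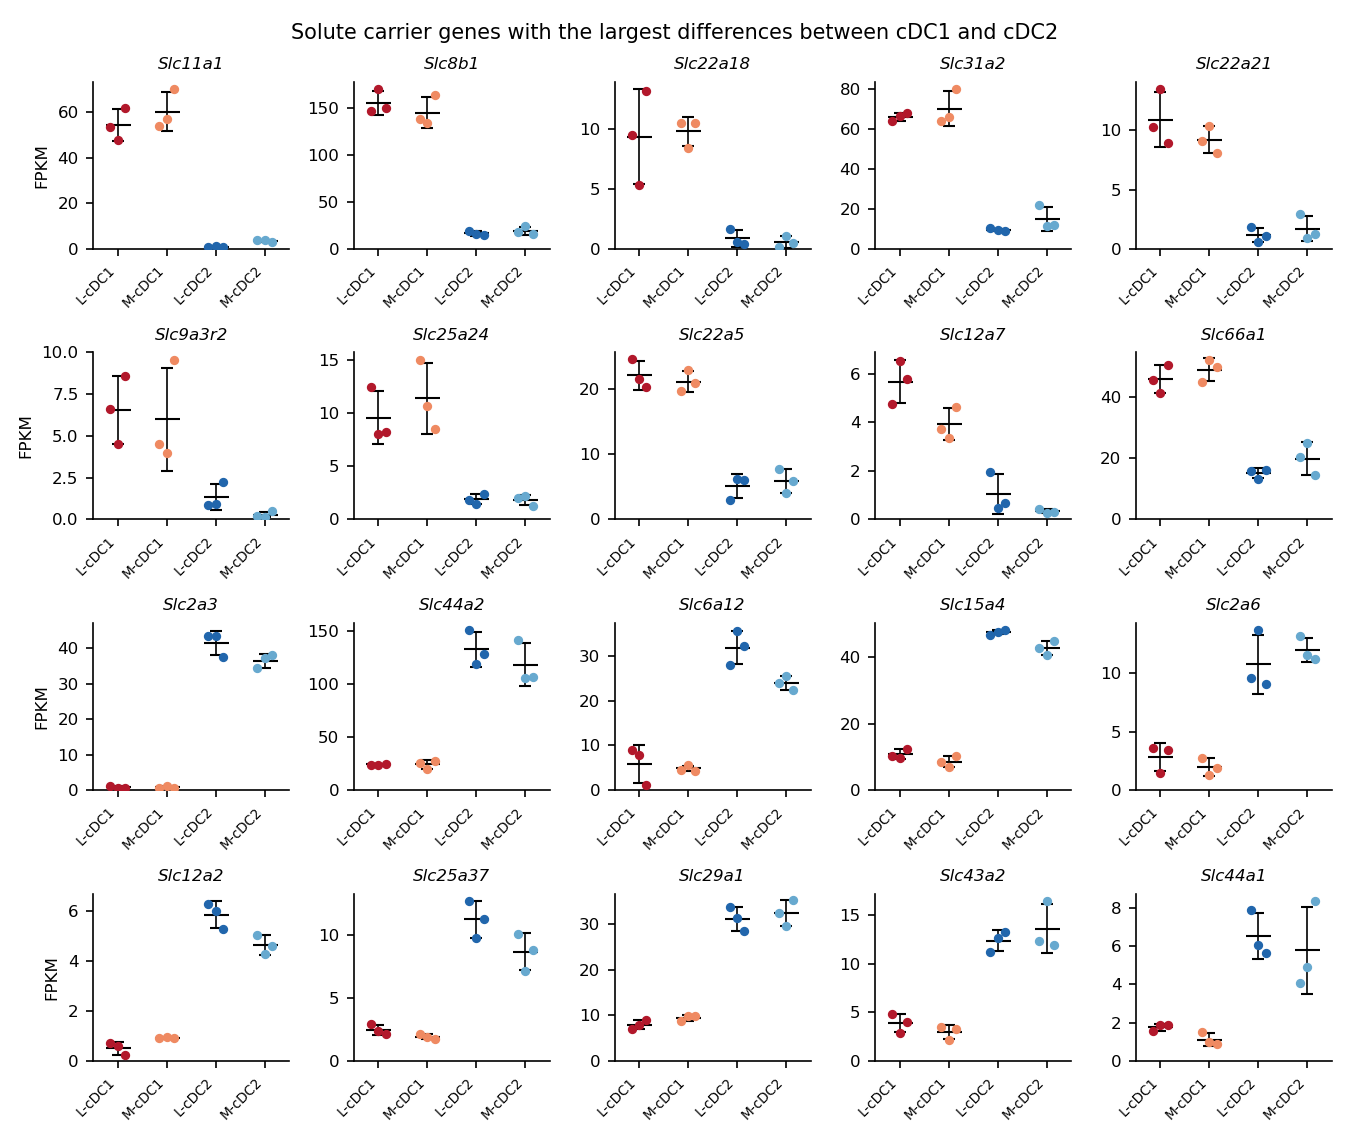
FPKM per library for the 10 carrier genes with the largest differences toward cDC1 (upper 2 rows) and the 10 toward cDC2 (lower 2 rows). Each point is a library, the horizontal bar is the group mean and the whisker is the SD of 3 libraries. In each panel the 3 cDC1 and 3 cDC2 libraries of L do not overlap, nor do those of M, which was a condition for choosing these genes.

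Among metal carriers, more were higher than lower in cDC1. Of 22 carriers of iron, copper, zinc and magnesium, 4 were higher and 1 lower in cDC1 in both comparisons (6 and 1 after quantile normalization). Their summed level was 270 ± 11.9 FPKM in L-cDC1 libraries and 275 ± 21.1 in those of M-cDC1, against 160 ± 2.78 in L-cDC2 and 169 ± 17.6 in M-cDC2 (SD, n = 3 each). The gap lay in the Slc11 family (63.7 and 69.9 FPKM in cDC1 against 5.5 and 9.35 in cDC2) and the Slc31 family (85.3 and 87.4 against 20.8 and 26.4). The sums of the zinc families Slc30 (33.7 and 34.1 against 38.8 and 38.1) and Slc39 (50 and 52 against 62.1 and 60.3) stood lower in cDC1 and were not tested. Slc11a1 moves iron and manganese out of phagosomes, and the C57BL/6 strain is known to carry a loss-of-function allele of it. The table places it on chromosome 1 from 74414354 to 74425221, plus strand, on a build that the labels and table do not give. It stood at 53.7, 47.8 and 62 FPKM in L-cDC1 and 54, 56.9 and 70.1 in M-cDC1, against 0.861, 0.991 and 0.863 in L-cDC2 and 3.83, 3.67 and 2.99 in M-cDC2. Every cDC1 library was far above every cDC2 library, and the M-cDC2 libraries were all above those of L-cDC2. The ratio of mean FPKM was 60.2 within L and 17.2 within M (log2 differences 4.86 and 3.76, SE 0.143 each, limma adjusted p = 1.12e-11 and 1.15e-10).

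Its relative Slc11a2, the iron importer of endosomes, was also higher in cDC1, at means of 9.21 and 9.53 FPKM in the cDC1 groups of L and M against 4.59 and 5.85 in the cDC2 groups (differences 0.88 and 0.63). The call within M was lost without M-cDC2 replicate 2 (adjusted p = 0.0562). Slc31a2, which adjusts copper stores of endolysosomes, had 63.7, 66.4 and 67.7 FPKM in L-cDC1 and 63.9, 65.8 and 80 in M-cDC1, against 10.1, 9.1 and 8.73 in L-cDC2 and 21.9, 11.1 and 11.9 in M-cDC2. Its groups did not overlap between subsets (differences 2.7 and 2.21, limma adjusted p = 8.27e-08 and 7.03e-07). Slc31a1, the copper importer of the plasma membrane and its neighbour on chromosome 4, differed by 0.7 and 0.61, at means of 19.4 and 17.5 FPKM in cDC1 against 11.5 and 11.4 in cDC2. Its calls were lost without a filter on low values (adjusted p = 0.0838 and 0.139). The L call was also lost without L-cDC1 replicate 1 or 2 or L-cDC2 replicate 2 (up to 0.0915), and the M call without 7 of the 12 libraries, up to 0.201 without M-cDC2 replicate 1. The zinc carrier Slc39a6 was the lower 1, at 7.35 and 8.11 FPKM in cDC1 against 19.4 and 18.6 in cDC2 (-1.29 and -1.1). Slc11a2, Slc31a1 and Slc39a6 were named after their values were seen, as were Slc22a23, Slc22a17, Slc14a1, Slc8a2, Slc20a2, Slc26a10, Slc37a2, Slc16a14, Slc66a2, Slc7a8, Slc38a1, Slc6a13, Slc43a3 and Slc25a20 below.

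Carriers of organic cations and carnitine were led by the Slc22 family. Of its 5 genes, 4 were higher in cDC1 in both comparisons, under each scaling. Slc22a18 is an imprinted gene for a putative cation carrier. It had 9.52, 5.28 and 13.2 FPKM in L-cDC1 and 10.5, 8.4 and 10.5 in M-cDC1, against 1.66, 0.54 and 0.357 in L-cDC2 and 0.0961, 1.07 and 0.456 in M-cDC2 (differences 2.47 and 2.85, SE 0.325, limma adjusted p = 3.73e-05 and 9.65e-06). The L-cDC1 libraries ranged from 5.28 to 13.2 FPKM and stayed above every cDC2 library. The carnitine carriers Slc22a5 and Slc22a21 lie 58305 bp apart on chromosome 11, and as close relatives they could share reads. Slc22a5 averaged 22.1 ± 2.24 FPKM in L-cDC1 libraries and 21.1 ± 1.58 in those of M-cDC1, against 5.06 ± 1.82 in L-cDC2 and 5.91 ± 1.82 in M-cDC2 (1.97 and 1.71). Slc22a21, described in the mouse, averaged 10.9 ± 2.33 and 9.22 ± 1.17 FPKM in cDC1, against 1.16 ± 0.611 and 1.69 ± 1.07 in cDC2 (2.49 and 1.99). The fourth, Slc22a23, was at 2.45 and 2.01 FPKM in cDC1 against 0.346 and 0.194 in cDC2 (1.33 in each). The fifth, Slc22a17, went the other way within L alone (difference -0.64, limma adjusted p = 0.0348). That call was lost after quantile normalization (0.303), under median-of-ratios scaling (0.0681), without a filter on low values (0.0586) and in the fit to the L libraries alone (0.08). It was also lost without L-cDC1 replicate 1 or 2 or L-cDC2 replicate 1 or 3 (up to 0.113). Over the whole group of 11 organic ion and vesicular carriers, 4 were higher and 1 lower in both. The lower 1 was Slc14a1, the urea channel of red cells and kidney, at 5.28 and 6.09 FPKM in cDC1 against 20.4 and 15.5 in cDC2 (-1.8 and -1.25).

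Promoter windows of Slc11a1, Slc22a18, Slc44a2 and Slc6a12 are shown because these carriers are among the 3 with the largest differences on either side. The others, Slc8b1 and Slc2a3, were not matched in the promoter table, which held 136 of the 179 genes. The windows are RefSeq's, of 300 bases on build GRCm38.p6, 250 before and 50 after a start. Slc44a2 has 2 windows in the table and Slc6a12 has 5, and the first listed is printed. Capitals mark E-box letters (CANNTG) and AP-1 letters (TGANTCA), searched on both strands.

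Slc11a1, chr1:74374953-74375252, plus strand: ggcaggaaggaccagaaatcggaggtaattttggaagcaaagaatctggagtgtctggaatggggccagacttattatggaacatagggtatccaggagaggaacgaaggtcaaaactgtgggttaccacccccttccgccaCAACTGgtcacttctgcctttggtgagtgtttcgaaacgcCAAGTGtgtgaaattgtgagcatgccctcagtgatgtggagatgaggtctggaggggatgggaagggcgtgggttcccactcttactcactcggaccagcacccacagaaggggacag

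Slc22a18, chr7:143473539-143473838, plus strand: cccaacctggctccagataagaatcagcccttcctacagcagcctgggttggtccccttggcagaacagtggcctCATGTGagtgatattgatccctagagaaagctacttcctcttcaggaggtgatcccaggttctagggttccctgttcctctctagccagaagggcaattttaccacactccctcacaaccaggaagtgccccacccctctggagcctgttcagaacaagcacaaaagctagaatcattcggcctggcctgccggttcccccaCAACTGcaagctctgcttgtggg

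Slc44a2, chr9:21320469-21320768, plus strand: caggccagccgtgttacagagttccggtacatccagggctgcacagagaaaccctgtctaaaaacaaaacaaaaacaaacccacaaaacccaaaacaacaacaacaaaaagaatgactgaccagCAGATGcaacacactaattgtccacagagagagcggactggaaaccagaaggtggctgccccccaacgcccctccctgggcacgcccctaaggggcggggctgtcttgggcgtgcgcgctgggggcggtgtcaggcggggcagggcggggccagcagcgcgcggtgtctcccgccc

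Slc6a12, chr6:121342324-121342623, plus strand: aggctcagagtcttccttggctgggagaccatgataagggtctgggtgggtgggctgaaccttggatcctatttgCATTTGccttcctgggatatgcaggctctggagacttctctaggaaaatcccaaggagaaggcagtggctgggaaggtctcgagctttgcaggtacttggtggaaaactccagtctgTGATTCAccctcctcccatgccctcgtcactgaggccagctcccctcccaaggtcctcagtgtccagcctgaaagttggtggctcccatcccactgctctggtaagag

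The windows of Slc11a1 and Slc22a18 hold 2 E-box matches each. Those of Slc44a2 and Slc6a12 hold 1 or 2, depending on the window, with 1 in each window printed. At least 1 E-box match stands in 72.3% of the 32851 promoter windows of the table. Of the 5 Slc6a12 windows, the printed one has an AP-1 match, which 7.81% of all windows have, and the windows of the other 3 genes have none. The number of CpG pairs is 7 in Slc11a1, 2 in Slc22a18, 16 and 7 in the windows of Slc44a2 and 2 to 5 in those of Slc6a12, against a median of 7. These matches are a description of letters.

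The 24 carriers of calcium, sodium, chloride, protons and phosphate included some of the strongest on both sides, with 7 higher and 8 lower in cDC1 in both comparisons, or 7 and 5 after quantile normalization. Slc8b1, the exchanger that lets calcium out of mitochondria against sodium, had 147, 171 and 151 FPKM in L-cDC1 and 139, 134 and 164 in M-cDC1, against 19.4, 15.7 and 14.3 in L-cDC2 and 17.6, 23.8 and 15.4 in M-cDC2. No cDC1 library was under 134 FPKM and no cDC2 library above 23.8, and the ratio of means was 9.51 within L and 7.67 within M (differences 3.18 and 2.89, SE 0.155, limma adjusted p = 1.47e-09 and 4.18e-09). Its relative of the plasma membrane, Slc8a2, went the other way. Slc8a2 was listed at 0 in all L-cDC1 libraries and at up to 0.00846 FPKM in M-cDC1, against 1.98 ± 0.424 in L-cDC2 and 1.37 ± 0.385 in M-cDC2.

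The chloride cotransporters of the Slc12 family split. Slc12a7, which lets potassium and chloride out, was at 5.68 ± 0.892 FPKM in L-cDC1 libraries and 3.91 ± 0.658 in those of M-cDC1, against 1.04 ± 0.81 in L-cDC2 and 0.343 ± 0.081 in M-cDC2 (differences 1.77 and 1.86). Slc12a2, which brings in sodium, potassium and chloride, had 0.712, 0.583 and 0.22 FPKM in L-cDC1 and 0.913, 0.974 and 0.909 in M-cDC1, against 6.31, 6.01 and 5.29 in L-cDC2 and 5.05, 4.27 and 4.59 in M-cDC2 (differences -2.2 and -1.54, limma adjusted p = 2.82e-07 and 1.02e-05). Slc9a9, the sodium and proton exchanger of endosomes, averaged 36 ± 0.511 and 32.8 ± 1.25 FPKM in cDC1 against 17.3 ± 0.458 and 14.9 ± 1.35 in cDC2 (differences 1.02 and 1.09). Of the phosphate importers, Slc20a2, with exons that overlap Smim19, was higher in cDC1 (0.85 and 0.86), while Slc20a1 averaged 6.55 and 6.41 FPKM in cDC1 against 6.41 and 6.65 in cDC2 and did not pass (0.01 and -0.01, with signs that varied between settings). Slc26a10, an orphan of the anion exchanger family, was lower, at 0.367 and 0.231 FPKM in cDC1 against 3.28 and 2.86 in cDC2, and its exons overlap those of B4galnt1 (mean 93.5 FPKM) on the other strand. A kit without strand cannot tell the shared reads of such overlapping genes apart.

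Sugar and monocarboxylate carriers were more often lower than higher in cDC1. Of 19 genes, 2 were higher and 8 lower in cDC1 in both comparisons, or 3 and 5 after quantile normalization. All genes tested were also more often lower (18.6%) than higher (9.84%) in both. The summed level was 95.4 ± 12.4 FPKM in L-cDC1 libraries and 83.4 ± 5.32 in those of M-cDC1, against 167 ± 13.1 in L-cDC2 and 160 ± 11.8 in M-cDC2. Most of that gap lay in the Slc2 family, which summed to 14.2 and 11.7 FPKM in cDC1 against 64.5 and 60.9 in cDC2. Slc2a3, the high-affinity glucose carrier of neurons and leukocytes (chromosome 6, 122704768 to 122778599, minus strand in the table), had 1.17, 0.686 and 0.606 FPKM in L-cDC1 and 0.572, 1.27 and 0.666 in M-cDC1, against 43.4, 43.5 and 37.5 in L-cDC2 and 34.3, 37.3 and 38 in M-cDC2. Every cDC1 library was at or under 1.27 FPKM and every cDC2 library at or above 34.3 FPKM. The ratio of means was 50.6 within L and 43.6 within M (differences -4.55 and -4.37, SE 0.169, limma adjusted p = 1.06e-10 and 1.46e-10).

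Slc2a6, a hexose carrier of lysosomes in mouse macrophages, followed at 2.82 ± 1.2 FPKM in L-cDC1 libraries and 1.99 ± 0.747 in those of M-cDC1, against 10.8 ± 2.52 in L-cDC2 and 12 ± 1.05 in M-cDC2 (differences -1.66 and -2.15). Slc2a1, the general glucose carrier, was at 5.96 ± 2.56 and 5.17 ± 1.06 FPKM in cDC1 against 7.66 ± 2.37 and 7.78 ± 1.02 in cDC2 and did not pass (-0.34 and -0.52, limma adjusted p = 0.327 and 0.14). The lactate carriers Slc16a3 and Slc16a1 lay on opposite sides. Each had means under 1 FPKM in its lower subset, so the minimum bears on both directions. Slc16a3, the lactate exporter of glycolytic cells, averaged 0.637 and 0.636 FPKM in cDC1 against 2.34 and 2.18 in cDC2 (-1.03 and -0.95), and its exons overlap those of Csnk1d (mean 49.8 FPKM). Slc16a1, which carries lactate and pyruvate either way, had 2.02, 3.29 and 1 FPKM in L-cDC1 and 0.634, 2.79 and 1.81 in M-cDC1, against 0, 0.0518 and 0.224 in L-cDC2 and 0.221, 0 and 0.291 in M-cDC2 (1.44 and 1.16). Slc16a1 met the minimum through cDC1 alone, and all cDC1 libraries were above all cDC2 libraries. Its call within M was lost without M-cDC1 replicate 2 (adjusted p = 0.0702) and without a filter on low values (0.0535). Slc37a2, a sugar phosphate exchanger of the endoplasmic reticulum, was lower, at 2.06 and 1.27 FPKM in cDC1 against 5.61 and 5.45 in cDC2, as was Slc16a14, an orphan monocarboxylate carrier, at 0.021 and 0.0135 FPKM in cDC1 against 1.42 and 2.29 in cDC2. Slc50a1, a glucose carrier of the Golgi, was at 41.5 and 39.4 FPKM in cDC1 against 59.7 and 51.9 in cDC2 (-0.51 and -0.39), and its call was lost under median-of-ratios scaling (adjusted p = 0.095 and 0.331). The L call was also lost without L-cDC2 replicate 2 (0.052), and the M call without 7 of the 12 libraries, up to 0.131 without M-cDC2 replicate 2. After quantile normalization (0.104), without a filter on low values (0.102) and in limma-voom (0.077) the M call was lost too.

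The 24 amino acid carriers gave 5 higher and 7 lower in cDC1 in both comparisons, or 5 and 5 after quantile normalization. Groups follow the family number, so that the 7 include the purine base carrier Slc43a3. The group had summed levels of 369 ± 13.7 and 340 ± 28.1 FPKM in cDC1 against 353 ± 0.57 and 344 ± 20.8 in cDC2. Slc66a1, which lets cationic amino acids out of lysosomes, was at 45.8, 41.4 and 50.5 FPKM in L-cDC1 and 44.9, 52.2 and 50 in M-cDC1, against 15.7, 13.2 and 16.3 in L-cDC2 and 20.3, 25 and 14.5 in M-cDC2 (differences 1.55 and 1.28, limma adjusted p = 4.95e-06 and 3.08e-05). The other gene with an Slc66 symbol, Slc66a2, moved alike, at 38.3 and 40.4 FPKM in cDC1 against 15.9 and 16.4 in cDC2 (1.23 and 1.25). Relatives under other symbols are not counted in these families. The listed carriers Pqlc3 (-0.56 and -0.55) and Ctns (-0.65 and -0.87) were lower in cDC1. Slc7a8, a light chain for neutral amino acids, had 3.4, 5.99 and 3.1 FPKM in L-cDC1 and 3.7, 2.56 and 2.27 in M-cDC1, against 0.226, 0 and 0.143 in L-cDC2 and 0.00816, 0.34 and 0.0103 in M-cDC2. It was near 0 in cDC2 (differences 2.16 and 1.77).

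The heavy chain that such light chains need, Slc3a2, averaged 45.8 ± 2.4 and 41.6 ± 2.03 FPKM in cDC1 against 33.8 ± 1.6 and 29.3 ± 4.98 in cDC2 (0.43 and 0.5, limma adjusted p = 0.0104 and 0.00408). Its best known partner, the leucine carrier Slc7a5, was at 5.51 and 4.73 FPKM in cDC1 against 6.05 and 6.88 in cDC2 and did not pass (-0.11 and -0.44). The glutamine carrier Slc1a5 was the highest gene of the group, at 110, 116 and 133 FPKM in L-cDC1 and 114, 82 and 117 in M-cDC1, against 94.8, 82.5 and 82.9 in L-cDC2 and 89.7, 68.5 and 75.8 in M-cDC2. The M groups overlapped, and its differences of 0.46 and 0.4 lost their calls without a filter on low values (adjusted p = 0.0675 and 0.112). The L call was also lost without L-cDC1 replicate 3 or L-cDC2 replicate 2 or 3 (up to 0.0789), and the M call without M-cDC1 replicate 1 or 3 or M-cDC2 replicate 2 or 3 (up to 0.14). After quantile normalization (0.0666) and in the fit to the M libraries alone (0.0991) the M call was lost too.

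Among the genes lower in cDC1, the sodium-coupled glutamine and alanine carriers Slc38a2 and Slc38a1, 44479 bp apart on chromosome 15, moved together. Slc38a2 averaged 13.4 ± 0.747 FPKM in L-cDC1 libraries and 14 ± 0.413 in those of M-cDC1, against 36.8 ± 1.25 in L-cDC2 and 41.5 ± 1.4 in M-cDC2 (-1.39 and -1.5, SE 0.0965, limma adjusted p = 6.05e-08 and 2.87e-08). Slc38a1 differed by -1.02 and -1.10. Slc6a12, the betaine and GABA carrier, had 8.87, 7.87 and 1.06 FPKM in L-cDC1 and 4.61, 5.59 and 4.37 in M-cDC1, against 28, 35.5 and 32.2 in L-cDC2 and 24, 25.5 and 22.5 in M-cDC2 (-2.53 and -2.1, SE 0.42). L-cDC1 replicate 3 was low among its group, and the groups did not overlap between subsets. Its neighbour 5343 bp away, the GABA carrier Slc6a13, was at 5.06 and 5.67 FPKM in cDC1 against 15.5 and 15.3 in cDC2 (-1.47 and -1.26). The 2 genes are close relatives and could share reads. Slc43a2, a carrier of branched-chain amino acids, averaged 3.91 and 2.97 FPKM in cDC1 against 12.4 and 13.6 in cDC2 (-1.46 and -1.88). The other gene of its family, Slc43a3, a carrier of purine bases, differed by -1.06 and -0.96, and its call within M was lost after quantile normalization (adjusted p = 0.0686) and without M-cDC2 replicate 3 (0.0623). The lysosomal arginine sensor Slc38a9 (2.95 and 2.66 FPKM in cDC1 against 3.8 and 3.85 in cDC2) and the lysosomal proton-coupled carrier Slc36a1 (0.491 and 0.501 FPKM in cDC1 against 1.2 and 1.06 in cDC2) did not pass, though each passed in 1 comparison by limma-voom on the recovered reads, as did Slc36a1 within L without L-cDC1 replicate 1 (adjusted p = 0.0289).

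Both oligopeptide carriers of the Slc15 family that met the minimum were lower in cDC1, under each scaling. Slc15a4 carries histidine and small peptides out of lysosomes and is known to be needed for responses through Tlr7 and Tlr9, for which it binds the adaptor Tasl. It lies on chromosome 5 from 127672728 to 127709961, minus strand in the table, and had 10.4, 9.74 and 12.5 FPKM in L-cDC1 and 8.42, 6.94 and 10.2 in M-cDC1, against 46.8, 47.7 and 48.1 in L-cDC2 and 42.6, 40.6 and 45 in M-cDC2. The cDC2 libraries of each group lay close together and far above those of cDC1 (-2.04 and -2.21, SE 0.134, limma adjusted p = 3.49e-08 and 1.63e-08). Slc15a3, its endolysosomal relative, was at 0.401 ± 0.0507 and 0.606 ± 0.0463 FPKM in cDC1 against 2.13 ± 0.244 and 2.63 ± 0.126 in cDC2 (-1.16 and -1.18). It met the minimum through cDC2 alone, so its direction was tied to the choice of genes.

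Partners of this pathway did not all move one way. Tasl averaged 7.23 and 9.1 FPKM in cDC1 against 24 and 22.4 in cDC2 (-1.62 and -1.22, limma adjusted p = 3.08e-06 and 4.79e-05). Tlr7, a sensor of single-stranded RNA, was at 0.376, 1.04 and 0.064 FPKM in L-cDC1 and 0, 0.0685 and 0.0335 in M-cDC1, against 18.8, 12.6 and 16.1 in L-cDC2 and 16.1, 11.6 and 18.4 in M-cDC2 (-3.53 and -3.96). Tlr9 did not pass (-0.03 and -0.33, limma adjusted p = 0.953 and 0.461). Tlr8, also on the list of partners, passed within M alone (-1.13, 0.00216, against -0.47 and 0.139 within L). Irf5, the transcription factor that Tasl recruits, was higher in cDC1, by 0.65 and 0.55.

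Of 7 carriers of lipids and choline, 2 were higher and 4 lower in cDC1 in both comparisons, under each scaling, and all 3 Slc44 genes were among the 4. Slc44a2, a choline carrier of the plasma membrane and mitochondria, had 23.9, 23.9 and 24.8 FPKM in L-cDC1 and 25.5, 19.6 and 27.4 in M-cDC1, against 151, 119 and 128 in L-cDC2 and 142, 106 and 107 in M-cDC2 (-2.4 and -2.25, SE 0.144, limma adjusted p = 1.34e-08 and 2.75e-08). No cDC1 library exceeded 27.4 FPKM and no cDC2 library was under 106. Slc44a1, the general choline carrier, was at 1.76 ± 0.183 and 1.12 ± 0.342 FPKM in cDC1 against 6.54 ± 1.21 and 5.79 ± 2.27 in cDC2 (-1.44 and -1.64). Slc44a5 was listed at 0 in all 6 cDC1 libraries and had 1.45, 1.28 and 1.2 FPKM in L-cDC2 and 2.1, 1.79 and 3.86 in M-cDC2. It met the minimum through cDC2 alone, and no fold is given. On the other side stood Slc33a1, which brings acetyl-CoA into the endoplasmic reticulum, at 8.75 ± 1.76 and 9.54 ± 2.64 FPKM in cDC1 against 3.54 ± 1.65 and 2.82 ± 0.335 in cDC2 (1.15 and 1.43), and Slc27a1, which takes up and activates fatty acids, at 7.51 ± 2.08 and 4.74 ± 0.959 FPKM in cDC1 against 2.59 ± 0.819 and 2.54 ± 0.307 in cDC2 (1.24 and 0.69).

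Of 10 carriers of nucleosides, vitamins and haem, 0 were higher and 2 lower in cDC1 in both comparisons, namely Slc29a1 and Slc46a3. Slc29a1, the equilibrative nucleoside carrier of the plasma membrane, averaged 7.94 ± 0.981 and 9.42 ± 0.617 FPKM in cDC1 against 31.2 ± 2.66 and 32.5 ± 2.88 in cDC2 (-1.85 and -1.68, SE 0.124, limma adjusted p = 4.24e-08 and 1.19e-07). Slc46a3 had 191, 215 and 183 FPKM in L-cDC1 and 182, 205 and 190 in M-cDC1, against 390, 399 and 403 in L-cDC2 and 426, 611 and 438 in M-cDC2. All cDC2 libraries were above all cDC1 libraries, and M-cDC2 replicate 2 stood above the other M-cDC2 libraries (-1.02 and -1.33). Slc29a3, the nucleoside carrier of lysosomes, was at 8.22 and 9.74 FPKM in cDC1 against 10.6 and 15.2 in cDC2, and its call within M (-0.59, limma adjusted p = 0.0285) was lost under median-of-ratios scaling (0.119), after quantile normalization (0.168) and without M-cDC1 replicate 2 or 3 or M-cDC2 replicate 1 or 3 (up to 0.114).

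The Slc25 family of mitochondrial carriers was the largest, with 35 of its 47 rows meeting the minimum, and gave 6 higher and 7 lower genes in both comparisons. After median-of-ratios scaling or quantile normalization these counts were 8 and 3. Summed levels were 1215 ± 32.9 FPKM in L-cDC1 libraries and 1264 ± 96.7 in those of M-cDC1, against 1065 ± 16.9 in L-cDC2 and 1114 ± 56.9 in M-cDC2. Slc25a24, a calcium-regulated carrier of ATP and phosphate, had 12.4, 8.03 and 8.22 FPKM in L-cDC1 and 15, 10.6 and 8.47 in M-cDC1, against 1.82, 1.43 and 2.38 in L-cDC2 and 2.01, 2.17 and 1.28 in M-cDC2 (1.86 and 2.11, limma adjusted p = 2.09e-05 and 6.31e-06). Slc25a38, which brings in glycine for haem synthesis, averaged 44.2 ± 1.71 and 34.8 ± 3.53 FPKM in cDC1 against 18.3 ± 2.25 and 17.5 ± 1.23 in cDC2 (1.23 and 0.95). Slc25a20, the carnitine and acylcarnitine exchanger of fatty acid oxidation, was at 17.6 and 19.8 FPKM in cDC1 against 7.81 and 9.38 in cDC2 (1.1 and 1).

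Slc25a37, mitoferrin, which imports iron for haem and iron-sulfur clusters, went the other way, at 2.89, 2.36 and 2.1 FPKM in L-cDC1 and 2.12, 1.87 and 1.77 in M-cDC1, against 12.7, 9.77 and 11.3 in L-cDC2 and 10.1, 7.11 and 8.84 in M-cDC2 (-1.83 and -1.72, SE 0.166, limma adjusted p = 1.02e-06 and 1.91e-06). The erythroid marker sum given above was higher in cDC1, in the direction of Slc25a38 and against that of Slc25a37, and its part in either was not tested. Slc25a11 averaged 105 FPKM in both cDC1 groups, against 141 and 125 FPKM in the cDC2 groups of L and M (-0.43 and -0.25), and both calls were lost under median-of-ratios scaling (adjusted p = 0.0633 and 0.715), and the M call also without L-cDC2 replicate 3 or any of the 6 M libraries (up to 0.112). Slc25a5 was called within L (0.31, limma adjusted p = 0.0231) and not within M (0.22, 0.0975), and the L call was lost without a filter on low values (0.0806) and without L-cDC1 replicate 1 or 2 or L-cDC2 replicate 1 or 2 (up to 0.0753). Within M it passed under median-of-ratios scaling (0.42, adjusted p = 0.00759) and without M-cDC1 replicate 1 (0.30, 0.0474). Rnf167 shares exon bases with Slc25a11.

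The 20 genes of the Slc35 family, most of which load sugar nucleotides into the Golgi and the endoplasmic reticulum, had 2 higher and 1 lower gene in both comparisons, and 6 and 1 after median-of-ratios scaling. Slc35b1, which supplies the endoplasmic reticulum with ATP, averaged 45.7 and 51.7 FPKM in cDC1 against 32.5 and 36 in cDC2 (0.47 and 0.51), and Slc35b4 averaged 5.14 and 4.5 FPKM in cDC1 against 9.48 and 8.76 in cDC2 (-0.78 and -0.83). The highest gene, Slc35c2, linked to fucose transfer, was at 91.4 and 88.8 FPKM in cDC1 against 80.8 and 75.9 in cDC2 and did not pass (0.17 and 0.22, limma adjusted p = 0.131 and 0.0584), though it did after median-of-ratios scaling (0.00743 and 0.00322) and, within M, without L-cDC1 replicate 3 (0.0418). The second highest, Slc35a4, averaged 51 and 43.8 FPKM in cDC1 against 50.2 and 48.3 in cDC2 and did not pass, and its exons overlap those of Apbb3.

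Of the 4 genes that carry a carrier's name without being one, the scaffolds that tether membrane proteins to the cytoskeleton split between subsets. Slc9a3r2 was at 6.57 ± 2.02 and 5.99 ± 3.08 FPKM in cDC1 against 1.34 ± 0.77 and 0.29 ± 0.173 in cDC2 (1.71 and 2.36), and Slc9a3r1 at 41 ± 4.63 and 37.8 ± 2.03 FPKM in cDC1 against 95.8 ± 8.36 and 82.8 ± 4.65 in cDC2 (-1.21 and -1.11). Slc7a6os, a transport factor named for its place beside Slc7a6, did not pass (-0.19 and 0.03). Single genes remain from smaller families. Slc10a3, an orphan member of the bile acid carrier family, did not pass (0.28 and -0.24), and its exons overlap those of Ubl4a. Slc49a4, a lysosomal carrier, averaged 0.465 and 0.119 FPKM in cDC1 against 0.928 and 1.78 in cDC2 and passed within M alone (-1.31, limma adjusted p = 0.00149, against -0.38 and 0.28 within L). Slc49a4 met the minimum through cDC2 alone, so its direction was tied to the choice of genes.

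**Figure D3:**
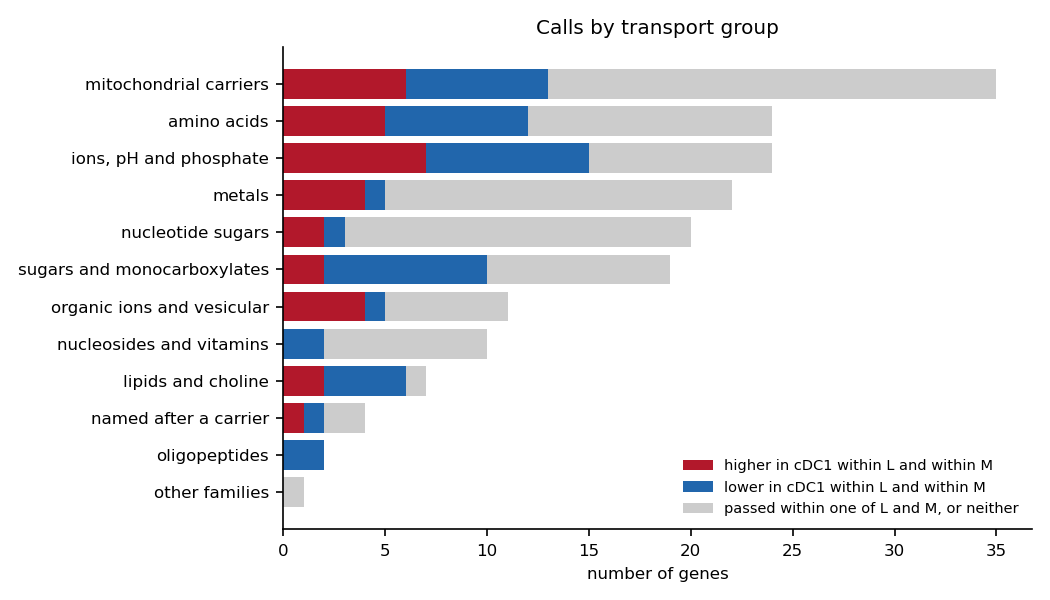
Number of carrier genes in each transport group, split into those that passed the test higher in cDC1 within L and within M (red), lower in both (blue) and the rest (grey). Lipid and choline carriers and sugar and monocarboxylate carriers have more blue than red, and metal and organic ion carriers more red than blue. Of all genes tested, 9.84% were higher and 18.6% lower in both.

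Carriers under other symbols and partners also differed in both directions. Of 23 further carriers listed, 21 were in the table and 17 tested, and 4 were higher and 8 lower in L-cDC1 than in L-cDC2, against 4 and 7 within M. Of all genes tested, 12.9% were higher and 26.6% lower within L, and 12.7% and 25.4% within M. The largest were Slco3a1, an organic anion carrier, at means of 29 and 18.4 FPKM in cDC1 against 0.819 and 1.59 in cDC2 (4.08 and 2.89), and Spns3, of the lysolipid and sphingolipid carrier family, at 4.47 and 3.9 FPKM in cDC1 against 45.3 and 46.3 in cDC2 (-3.1 and -3.29). Flvcr1, a choline and haem carrier, was lower in cDC1 (-2.03 and -2.01), in the same direction as Slc44a1 and Slc44a2. The subunits of the pyruvate carrier of mitochondria moved apart, with Mpc1 lower (-0.57 and -0.44) and Mpc2 higher (0.63 and 0.82) in cDC1, and the Mpc1 call within M was lost under median-of-ratios scaling (adjusted p = 0.11). Ucp2, a mitochondrial carrier of the inner membrane, was higher (1.02 and 0.86).

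Of 19 partner genes, 17 were in the table and tested, with 5 higher and 5 lower within L and 4 and 6 within M. The shares of all genes were 12.9% higher and 26.6% lower within L, and 12.7% and 25.4% within M. Cd36, a receptor for fatty acid uptake, stood at 209, 178 and 159 FPKM in L-cDC1 and 187, 185 and 184 in M-cDC1, against 2.23, 4.86 and 1.18 in L-cDC2 and 1.36, 1.6 and 1.81 in M-cDC2 (5.72 and 6.17). Emb, which takes some monocarboxylate carriers to the cell surface, went the other way, at 0.992 and 1.18 FPKM in cDC1 against 19.8 and 22.5 in cDC2 (-3.4 and -3.42). Bsg, which does so for Slc16a1 and Slc16a3, differed by 0.33 and 0.24, and its call within M was lost without any of the 6 M libraries in turn (adjusted p up to 0.092). The genes named from these lists were picked out after their values were seen.

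The comparison of L with M asked whether cDCs of the same subset differ by group. Few carriers passed. In cDC1, 0 of 179 genes passed (limma, 0.394% of all genes did, 0.354% higher and 0.0402% lower), and 8 had an unadjusted p under 0.05 (4.47% of carriers, 10.3% of all genes). The difference was under 0.5 in size on the log2 scale for 174 of them, or 97.2%, against 90.5% of all genes. In cDC2, 1 gene passed, lower in L-cDC2 (1.83% of all genes passed, 0.788% lower), and 15 had an unadjusted p under 0.05 (8.38% of carriers, 10.2% of all genes). The difference was under 0.5 in size for 168, or 93.9%, against 89.9% of all genes. Limma-voom on the recovered reads gave the same counts of 0 and 1, and 44 and 216 over all 12434 genes. The median size of the difference was 0.173 in cDC1 and 0.165 in cDC2, against 0.552 between subsets within L and 0.536 within M. Across the 179 genes the L minus M differences in cDC1 and in cDC2 correlated at 0.0777.

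**Figure D4:**
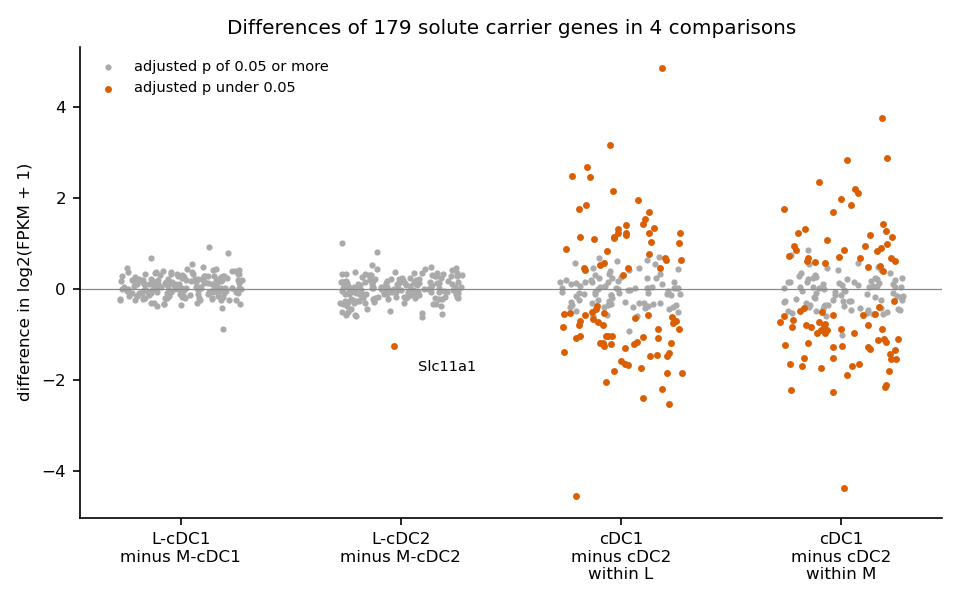
Difference in log2(FPKM + 1) of 179 carrier genes in 4 comparisons, 1 point per gene, spread sideways at random to separate them. Orange points had a limma adjusted p under 0.05. The L minus M differences lie within 1.24 of 0 with 1 orange point, Slc11a1 in cDC2, whereas 91 and 90 points are orange between subsets.

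In cDC1 the 4 genes with the smallest p were Slc5a6, Slc25a38, Slc35g1 and Slc27a1, and none of them passed. Slc5a6, which takes up biotin and pantothenate and is counted among the sugar carriers by its family number, had 1.89, 2.28 and 3.97 FPKM in L-cDC1, and the M-cDC1 libraries had 0.725, 1.14 and 0.856. The groups did not overlap, and the difference of 0.93 (SE 0.266) was the largest of any carrier in cDC1 but missed the threshold (limma adjusted p = 0.193). Its exons overlap those of Atraid (mean 23.7 FPKM). Slc25a38 differed by 0.34 (adjusted p = 0.321), Slc35g1 by 0.7 (0.383) and Slc27a1 by 0.55 (0.417) in the same limma fit.

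In cDC2 the gene that passed was Slc11a1, at 0.905 ± 0.0745 FPKM in L-cDC2 and 3.5 ± 0.445 in M-cDC2 (SD, n = 3 each), a difference of -1.24 (SE 0.143, limma adjusted p = 0.000226). The adjusted p lay between 3.7e-05 and 0.0204 over the alternatives. The next smallest p belonged to Slc4a7, a bicarbonate importer, with 1.66, 1.97 and 1.4 FPKM in L-cDC2 against 3.23, 2.7 and 2.4 in M-cDC2 (-0.49, adjusted p = 0.234), to Slc31a2 (-0.57, 0.24) and to Slc28a2, a concentrative nucleoside carrier, with 3.91, 2.96 and 1.47 FPKM in L-cDC2 against 1.92, 0.314 and 0.527 in M-cDC2 (1.01, 0.257). None of these 3 passed. The Slc4a7 libraries of L-cDC2 and M-cDC2 did not overlap, nor did those of Slc31a2, while those of Slc28a2 did.

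Markers of other cells were looked at beside the Slc11a1 result, since Slc11a1 was high in cDC1 and is a known gene of monocytes and macrophages. The summed level of the 9 cDC1 markers was 155 to 160 FPKM in L-cDC2 and 151 to 158 in M-cDC2, and 1 of 9 passed, lower in L-cDC2. It was Clec9a, at 0.535, 0.864 and 0.786 FPKM in L-cDC2 against 2.88, 1.78 and 1.68 in M-cDC2 (-0.83, limma adjusted p = 0.00732), a call that was lost in limma-voom (0.0571) and in the fit to the cDC2 libraries alone (0.179). Xcr1 had 0.773, 1 and 0.866 FPKM in L-cDC2 against 1.49, 2.08 and 1.29 in M-cDC2 and did not pass (-0.47, adjusted p = 0.186). Of the other 7, which did not pass either, Itgae (0.32) and Wdfy4 (0.26) had positive differences and the rest lay between -0.29 and -0.02. Of the 9 cDC2 markers, 1 passed, Cd209a, lower in L-cDC2 (-1.03, limma adjusted p = 0.00549), a call kept in all alternatives. Among the others, Clec10a (0.91), Tbx21 (0.8), Esam (0.28) and Clec4a4 (0.22) had positive differences, and the rest lay between -0.33 and -0.11. The sum of the 9 monocyte and macrophage markers was 323 to 476 FPKM in L-cDC2 and 1010 to 1220 in M-cDC2. Of the 7 of them tested, Lyz2 and Csf1r passed, both lower in L-cDC2. Lyz2, a lysozyme of myeloid cells, had 223, 351 and 182 FPKM in L-cDC2 against 969, 1021 and 804 in M-cDC2 (-1.93), and Csf1r, the receptor for macrophage growth factor, 20.9, 24 and 27.4 in L-cDC2 against 64.1, 67.8 and 64 in M-cDC2 (-1.41). The sum was mostly Lyz2. The 5 others tested did not pass, with differences of 0.58 for Ly6c2, -0.25 for Vcam1, -0.32 for Adgre1, -0.45 for Spic and -0.74 for Hmox1. The macrophage markers Fcgr1 and Mertk were at most 0.413 and 0.559 FPKM in any library. The part of these cells in the Slc11a1 difference was not tested.

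**Figure D5:**
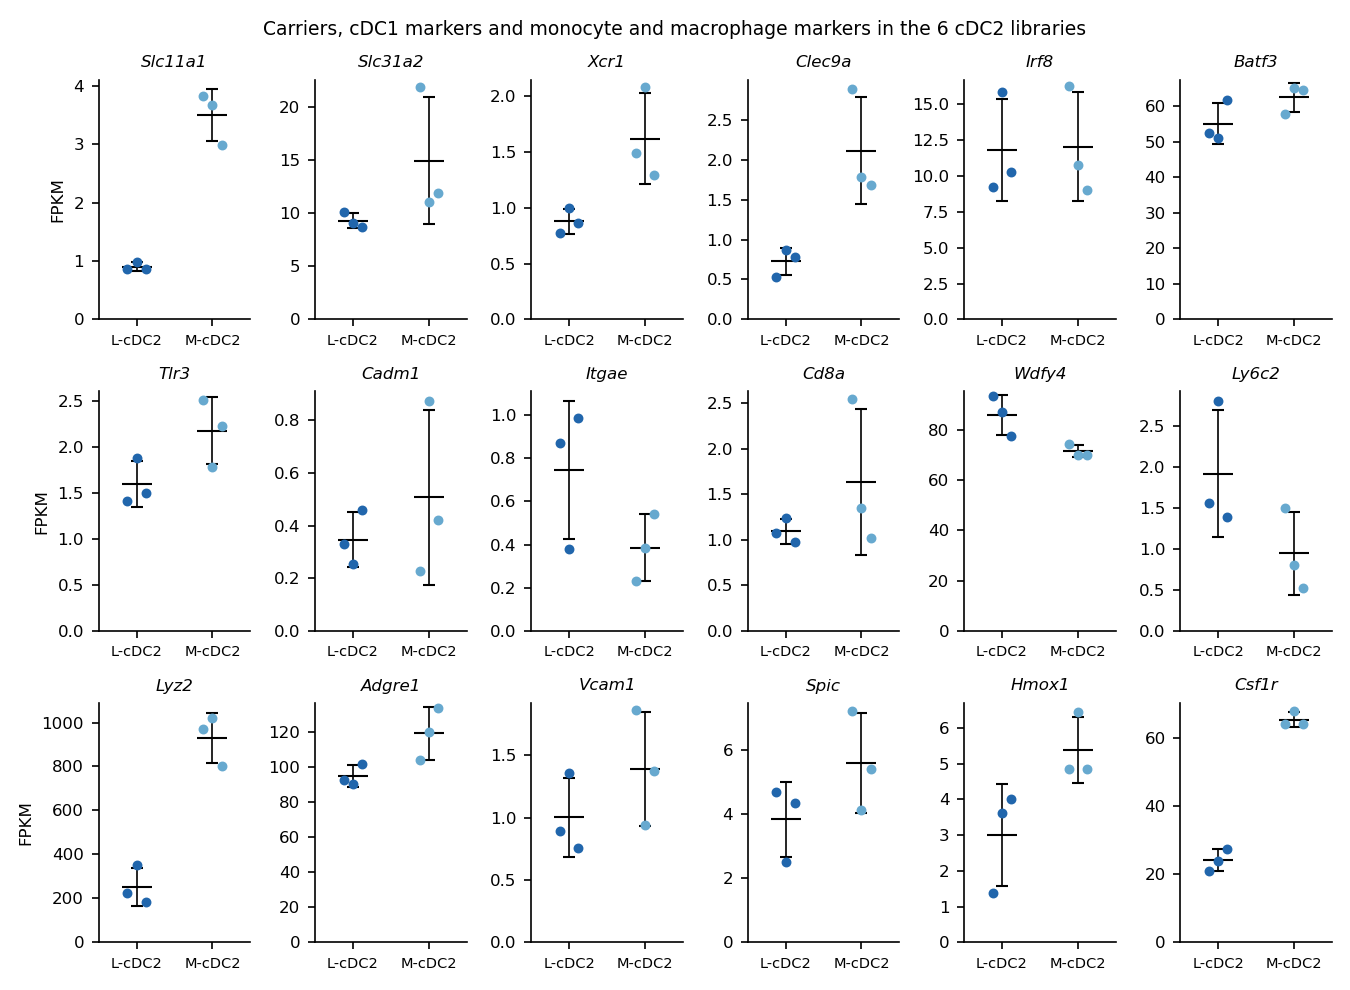
FPKM in the 3 L-cDC2 and 3 M-cDC2 libraries for the carriers Slc11a1 and Slc31a2, the 9 cDC1 markers (Xcr1 to Wdfy4) and the 7 monocyte and macrophage markers tested (Ly6c2 to Csf1r). Points are libraries, the bar is the mean and the whisker the SD. All L-cDC2 libraries lie under all M-cDC2 libraries for both carriers, Xcr1, Clec9a, Lyz2, Adgre1, Hmox1 and Csf1r, and above them for Wdfy4, while the other 9 overlap; Slc11a1, Clec9a, Lyz2 and Csf1r passed the test.

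Whether the L minus M difference depended on the subset was tested as an interaction, the difference in cDC1 minus that in cDC2. Of 179 genes 1 passed (0.298% of all genes did, 0.193% with a positive and 0.105% with a negative interaction), again Slc11a1, with L minus M at -0.14 (SE 0.143, limma adjusted p = 0.81) in cDC1 and -1.24 in cDC2, an interaction of 1.09 (SE 0.202, adjusted p = 0.0404). This call was lost under median-of-ratios scaling (0.0632), in limma-voom (0.146) and without any of 11 of the 12 libraries in turn, up to 0.13. The next 3 genes did not pass. They were Slc5a6 (1.21, adjusted p = 0.327), Slc7a7, a basic amino acid exporter with exons that overlap Oxa1l (0.51, 0.411), and Slc12a2 (-0.66, 0.453).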

How the data were processed

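RNA of sorted spleen cDCs was made into libraries with kits that do not mark strand, per the labels' protocols. The authors deposited 1 table of FPKM values per gene. Per the submitters' processing notes, the tools were STAR 2.7.9a and featureCounts 2.0.1, with the trimmers cutadapt 3.7, Trimmomatic 0.39 and Trim Galore 0.6.7 and the package DESeq2 1.20.0. They name GRCh38, a human build, although the table's symbols are mouse, so the build is taken as not given in the sources used here. 100% of the values came out as whole reads within 0.01 read, which gives the depths in the text.

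The 12434 genes that reached 1 FPKM in 3 or more libraries were fitted on log2(FPKM + 1) with limma 3.58.1 in R 4.3.3, with 1 mean per group over all 12 libraries, 8 residual degrees of freedom and a mean-variance trend. This scale understates the change of low genes. P-values were adjusted by Benjamini-Hochberg over all genes tested, with calls at adjusted p under 0.05, and the script was tested on simulated data. With 3 against 3 libraries, an exact permutation test of a single gene cannot go below 0.1. Figures used matplotlib 3.10.9. Alternatives were another pseudocount, filter, scaling, fit, a replicate block and each library left out.

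The carriers, transport groups and lists were chosen with earlier results of these data known. Named genes were the 10 largest differences each way among carriers called alike within L and within M, without overlap and with a mean of at least 5 FPKM in a higher group; the 4 smallest p in each L against M comparison and the interaction; in each transport group the 2 highest genes and the 2 with the smallest p within M; and 23 fixed well-known carriers. Exons of 18 carriers overlap another tested protein-coding gene, and their values are uncertain. Some genes of the lists are not reported here.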

Additional observations from a re-analysis of the deposited data

Results flagged for a closer look

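The L minus M difference of Slc11a1 was not alike in the subsets by a test of the difference itself. It was -0.14 (SE 0.143) in cDC1, where L-cDC1 averaged 54.5 ± 7.16 FPKM and M-cDC1 60.3 ± 8.62, and -1.24 (SE 0.143) in cDC2, where they were 0.905 ± 0.0745 FPKM in L-cDC2 and 3.5 ± 0.445 in M-cDC2 (SD, n = 3 each). The interaction was 1.09 (SE 0.202, limma adjusted p = 0.0404), and its adjusted p over the alternatives lay between 0.00973 and 0.146.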

How the results depend on the processing

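Of 170 differences of named genes, 139 kept their direction and their side of the threshold in all alternatives that could be run, 18 lost a call in at least 1, 5 gained one and 8 changed sign. Within L 60 and within M 59 carriers passed with a minimum of 5 FPKM, which left 111 carriers to test. These are 54.1% and 53.2% of those carriers, and 3606 and 3706 of all 7601 genes tested there passed. Leaving out 1 library gave 77 to 94 calls within L, 72 to 94 within M, 0 between L-cDC1 and M-cDC1, 1 between L-cDC2 and M-cDC2 and 0 to 1 in the interaction. Over all 12434 genes it gave 4186 to 4893 calls within L and 3854 to 4852 within M. Between L and M it gave 24 to 102 in cDC1, 146 to 232 in cDC2 and 10 to 38 in the interaction. The interaction count was 0 without a filter on low values, under median-of-ratios scaling, in limma-voom and with the replicate block, where Slc11a1 had an adjusted p of 0.0795. With the replicate block, 92 carriers passed within L and 90 within M, and 0 and 1 between L and M. Of all 12434 genes, 4952 passed within L and 4754 within M in that fit, and 45 and 233 between L and M. Deviations of same-numbered libraries correlated at -0.0101 to 0.156, with 16 of 18 pairs above 0 and 3 over 0.1. Not every pair was over 0.1, so the numbers were not taken as pairs. As a hint from the data and not the design, 23 of 36 combinations of libraries and groups correlated best with their own number, where chance would give about 12, and 3 of the 12 libraries did so in every group.

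Signs changed only in genes that did not pass. Slc7a6os was 0.06 within L after quantile normalization and -0.03 to 0.09 within M without 1 library. Slc35a4 was -0.07 to 0.13 within L without 1 library and 0.07 within M under median-of-ratios scaling. Slc7a5 within L was 0.06 under median-of-ratios scaling, 0.16 after quantile normalization and -0.21 to 0.03 without 1 library, and Slc38a9 within L was 0.01 after quantile normalization. Slc20a1 was -0.00 within L in limma-voom and -0.19 to 0.12 without 1 library, and within M 0.16 under median-of-ratios scaling, 0.26 after quantile normalization and -0.22 to 0.19 without 1 library. The cause was not tested. Low carriers are limited by depth, since 3 reads on 1 kb are worth 0.122 to 0.189 FPKM.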

Other observations

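By the gene ontology terms that the deposited table itself gives, 82 of the 179 carriers are annotated to the plasma membrane, 34 to the mitochondrial inner membrane and 14 to the lysosome or its membrane. Of these, 20, 8 and 3 were higher in cDC1 in both comparisons (limma adjusted p under 0.05) and 21, 7 and 2 were lower, against 33 higher and 42 lower among all 179. Of all genes tested, 9.84% were higher and 18.6% lower in both. The lists overlap and leave out carriers with no such term. The lysosome list lacks Slc15a4 and Slc46a3, described above as lysosomal and lower in cDC1 in both comparisons. Its balance of directions therefore depends on the annotation.

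Some carriers of 1 family lie close together in the table. The pairs Slc22a5 and Slc22a21 (58305 bp apart), Slc38a1 and Slc38a2 (44479 bp), Slc31a2 and Slc31a1 (62316 bp) and Slc6a13 and Slc6a12 (5343 bp) were called the same way within L and within M. Slc36a3 and Slc36a1 (52642 bp) had values of -0.58 and -0.59 within L, where neither passed. Within M they had -0.97 and -0.45, where Slc36a3 passed and Slc36a1 did not. Slc25a43 and Slc25a5 (18449 bp) had 1.13 and 0.31 within L, where both passed, and 0.56 and 0.22 within M, where neither did. Reads shared between relatives were not tested.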
